A study of Drosophila melanogaster with 4 samples.

Results

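Of 7944 regions in a combined list of H2Av enrichment in larval nuclei of Drosophila melanogaster, 260 were narrow regions on X, 2L, 3L and 3R that both ChIP replicates held. They were chosen by measured values. A region of the combined list on these 4 arms entered when it was under 2500 bp wide and overlapped, by at least 1 bp, a region of each of the 2 ChIP replicate lists. The 260 made up 4.82% of the 5398 combined regions on the 4 arms and 11.1% of the 2334 narrow ones. Width, overlap and arm made the choice and the score comes from the same enrichment, so every value here is a description and no test was run. In the text these 260 are the narrow shared regions. They are set beside 2074 other narrow regions that were not in both replicates and 2671 wider shared regions, of 2500 bp or more, that were.

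H2Av is the single H2A variant histone of the fruit fly and does the work that is divided between H2A.Z and H2A.X in mammals. It is placed at nucleosomes just downstream of the start sites of transcribed genes, takes part in Polycomb silencing and heterochromatin, and is phosphorylated where DNA is broken. Nucleosomes sit along DNA at a regular repeat, so the width of an enriched region can be given as the number of repeats that fit in it.

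The series holds 2 ChIP libraries made with the anti-H2Av antibody H2AV 9751 and 2 input libraries of chromatin that was not precipitated, all from nuclei of wild-type Oregon-R flies at the 3rd instar larval stage. Larval tissue was homogenised and fixed with formaldehyde, and its chromatin was sonicated, so a listed region averages over whatever cells the homogenate held. No other genotype, stage or treatment is compared. Nothing in the labels ties the replicates to separate batches of larvae, and differences between them may be technical. On the 4 arms the replicate 1 list held 6752 regions, the replicate 2 list 3372 and the combined list 5398. Of the bases of these arms, replicate 1 regions took up 25.9%, replicate 2 regions 18.3% and combined regions 25.3%. Read depth is unknown. The gene table at hand is on another release of the genome than the regions, so no gene could be put to a region, the larval origin was not checked against marker genes, and regions are given by release 5 position alone.

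The narrow shared regions were close to the 2500 bp limit. Their width ran from 1009 to 2495 bp with a median of 2115 bp (interquartile range 1884.5 to 2342 bp). At a repeat of 190 bp, a round value for flies that was not measured here, they spanned 5.31 to 13.1 nucleosome repeats with a median of 11.1 (interquartile range 9.92 to 12.3). The other narrow regions had a median of 1428 bp, or 7.52 repeats, and the wider shared regions one of 5459 bp, or 28.7 repeats. The limit itself is 13.2 repeats. The lists have floors of their own: the smallest region was 1001 bp in the combined list (5.27 repeats), 1301 bp in replicate 1 (6.85 repeats) and 1302 bp in replicate 2. No region of any list on these arms was as short as 5 repeats. The repeats are a listed width divided by a fixed length, and how many nucleosomes within a region held H2Av was not measured.

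The share of combined regions found in both replicates went up with width on both sides of 2500 bp. It was 1.51% at 1001 to 1499 bp (18 of 1196 regions; 95% interval 0.894% to 2.37%), 10.1% at 1500 to 1999 bp (75 of 741; 8.04% to 12.5%) and 42.1% at 2000 to 2499 bp (167 of 397; 37.2% to 47.1%). Just above the limit, at 2500 to 2999 bp, it was 59.8% (244 of 408; 54.9% to 64.6%), and among regions of 10000 bp or more it was 99.8% (524 of 525; 98.9% to 100%). These intervals are exact Clopper-Pearson intervals, as are all others given; they hold counting error alone, and regions that neighbour each other are not independent. A wider region also offers more bases for an overlap of 1 bp, and the part of this in the order was not tested. The narrow shared regions were thus the narrow end of a range that ran on past the limit: 167 of the 260 were in the top width class below the limit and 18 were under 1500 bp.

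**Figure D1:**
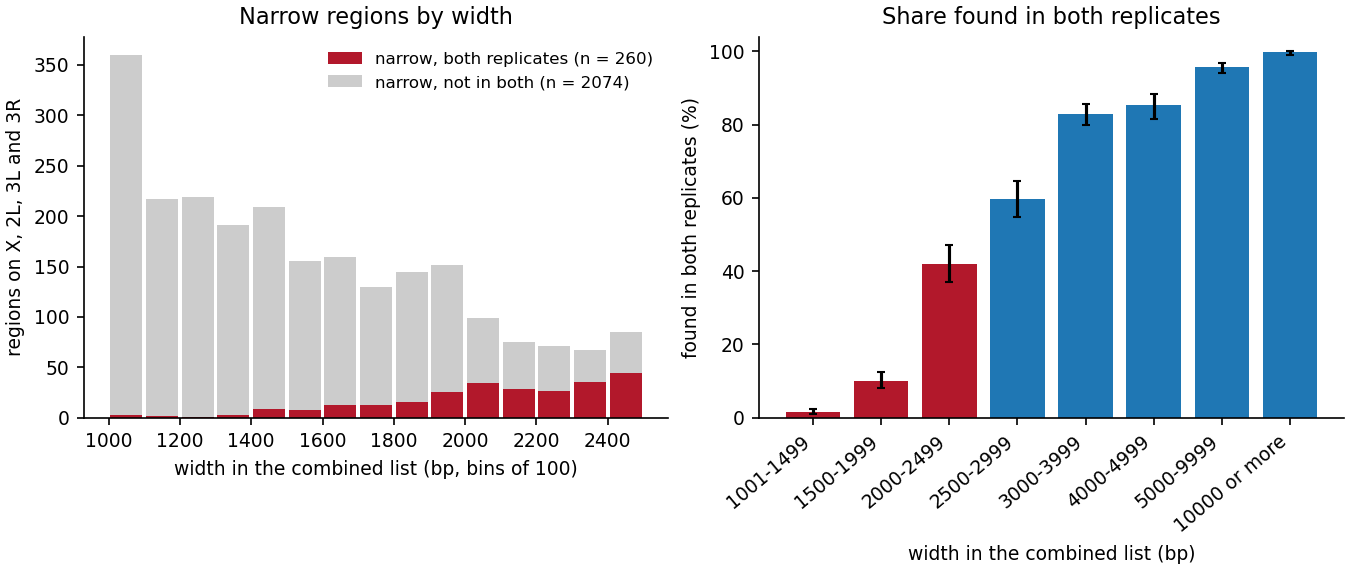
Left, number of combined-list regions on the 4 arms by width in bins of 100 bp, with the 260 narrow shared regions in red and the 2074 other narrow regions stacked on them in grey. Right, percent of combined regions found in both replicates in each width class, with exact 95% Clopper-Pearson intervals as bars; narrow classes are red and wider ones blue, and the share climbs from 1.51% in the first class to 99.8% in the last.

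The limit cuts a range, as the regions nearest to it show. The widest narrow shared regions were 2 of 2495 bp and 1 of 2493 bp. On X at 19425238 to 19427732 the region was 2495 bp wide with a score of 0.52, and replicate regions of 2166 bp and 2469 bp lay on it. On 3R at 5334488 to 5336982 the region was also 2495 bp wide, with a score of 0.61, and its replicate 1 region, at 3254 bp, was itself over the limit. The third, on X at 2232988 to 2235480, had a score of 0.47. Just outside the limit were 3 shared regions of 2503 bp, on X at 4558706 to 4561208, on 2L at 4222958 to 4225460 and on 3L at 584664 to 587166, with scores of 0.54, 0.51 and 0.35. The scores of these 3 overlapped those of the 3 just inside. Over the whole classes on either side, shared regions of 2000 to 2499 bp had a median score of 0.45 and a median gap of 961 bp, and shared regions of 2500 to 2999 bp had 0.65 and 1279 bp.

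Most of the 260 narrow shared regions were narrow in the replicates too, more often in replicate 1. Each of 254 of the 260 (97.7%) met exactly 1 region in each replicate list. Replicate 1 regions at these places had a median width of 1924.5 bp (interquartile range 1595 to 2178 bp, highest 6969 bp). Replicate 2 regions had a median of 1991.5 bp (1606.25 to 2384.5 bp), with a long tail up to 25289 bp. Both replicate regions were under 2500 bp at 184 of the 260 (70.8%; 64.8% to 76.2%). The replicate 2 region alone was wider at 57 (21.9%), the replicate 1 region alone at 17 (6.54%) and both at 2. In 10 cases the replicate 2 region was a broad one of 10 kb or more, against 0 cases in replicate 1 (0%; up to 1.41%).

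At 72 of the narrow shared regions (27.7%; 22.3% to 33.6%) the replicate 2 region ran on into another region of the combined list, which happened with the replicate 1 region at 11 (4.23%; 2.13% to 7.44%). The same shares for the wider shared regions were 14.0% in replicate 2 and 4.46% in replicate 1. In 46 of the 72 the replicate 2 region was 2500 bp or wider, and in 26 it was itself narrow and bridged the edges of adjacent combined regions. A neighbour close by is part of how the 72 were picked, so their median gap of 252 bp is a description only. The replicate 2 region was 2500 bp or wider at 13 of the 188 others.

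Replicate 1 covered the narrow shared regions more fully than replicate 2. The median region had 89.8% of its bases in replicate 1 regions (interquartile range 80.2% to 95.2%) and 78.4% in replicate 2 regions (58.4% to 91.7%). The medians at wider shared regions were in the same order, at 93.5% and 90.4%. Replicate 1 regions also took up more of the 4 arms, at 25.9% against 18.3%. At least 50% was covered by replicate 1 at 251 of the 260, by replicate 2 at 207 and by both at 198 (76.2%; 70.5% to 81.2%). The stretch held in all 3 lists had a median of 1379.5 bp, which is 65.7% of the region's width at the median and 7.26 repeats (interquartile range 3.78 to 9.35 repeats). At 4 of the 260 no base was in all 3 lists, because the replicate regions lay on separate parts of the combined region. Under the strictest reading, narrow in both replicates and at least 50% covered by both, 153 of the 260 remained (58.8%), with a median width of 2157 bp.

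**Figure D2:**
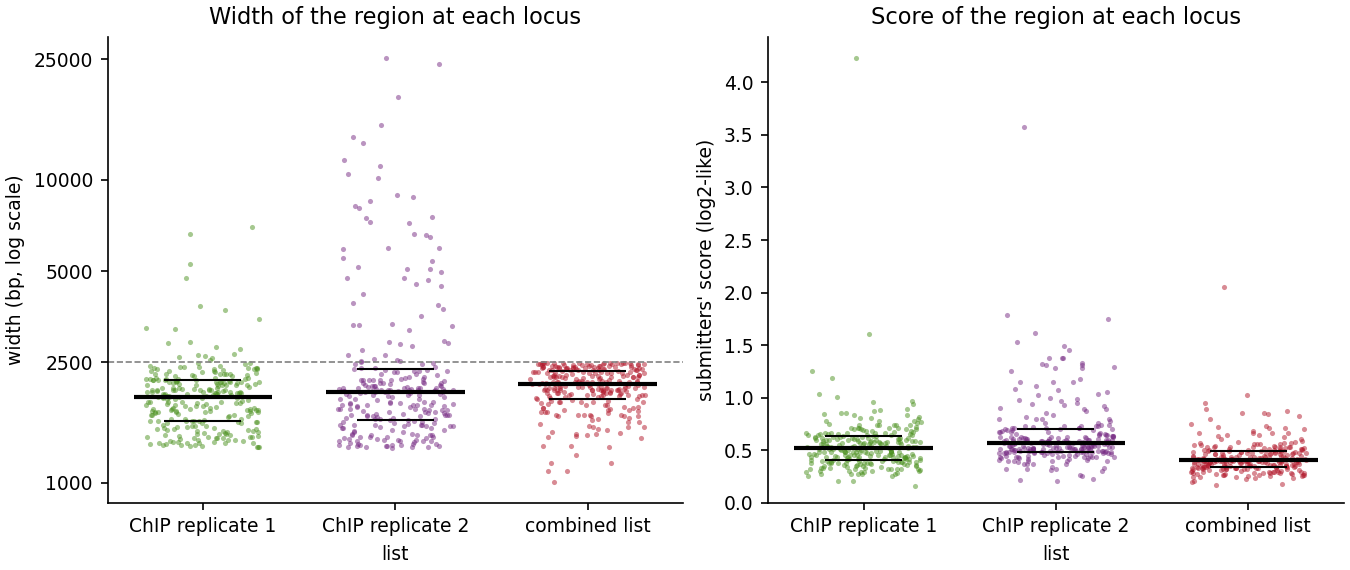
Each point is the replicate 1, replicate 2 or combined-list region at one of the 260 narrow shared regions, by width in bp on a log scale (left, dashed line at the 2500 bp limit) and by the submitters' score (right). Thick lines are medians and thin lines quartiles; replicate 2 widths have a median of 1991.5 bp and reach 25289 bp, and the scores of the 3 lists are each on their own scale.

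Most narrow shared regions had close neighbours. The nearest other region of the combined list was a median of 811 bp away (interquartile range 298 to 2500.5 bp), against 1364 bp for the other narrow regions and 985 bp for the wider shared ones. The median was 481 bp with a width limit of 2000 bp and 1762 bp once regions less than 500 bp apart were joined. It was 1062 bp at the 184 narrow in both replicates. At the 153 of these that were also at least 50% covered by both it was 1283 bp, close to that of the other narrow regions. At the 57 where the replicate 2 region alone was wider it was 425 bp. At 96 of the 260 (36.9%; 31.0% to 43.1%) the gap was under 500 bp, and at 45 (17.3%; 12.9% to 22.5%) it was shorter than 1 nucleosome repeat. The shares under 500 bp were 28.0% of the other narrow regions and 33.3% of the wider shared ones. A neighbour lay within 5 kb on both sides of 130 of the 260 (50.0%) and on 1 side of 99 (38.1%).

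Isolated narrow shared regions were few. No other region lay within 5 kb of 31 of the 260 (11.9%; 8.25% to 16.5%), against 18.7% of the other narrow regions (17.1% to 20.5%) and 10.7% of the wider shared regions (9.60% to 12.0%). Of the 31, 19 had no region within 10 kb and 3 had none within 50 kb. Their median width was 2145 bp, against 2101 bp for the 229 with a neighbour within 5 kb, and their median combined score was 0.42, against 0.40. Of the 31, 27 were narrow in both replicates (87.1%; 70.2% to 96.4%), against 157 of the 229 (68.6%; 62.1% to 74.5%). At least 50% was covered by both at 30 of the 31, against 168 of the 229. Isolation leaves little room for a replicate region that runs on into another combined region. Of the 72 where replicate 2 did so, 0 were isolated. Among the 188 others, isolated or not, 161 were narrow in both (85.6%) and 169 were at least 50% covered by both (89.9%). The part of this in the contrast was not tested. The stretch in all 3 lists had a median of 1638 bp in the isolated regions, against 1336 bp in the others. Replicate 2 regions were wider than 2500 bp and replicate 1 regions were not at 57 narrow shared regions, and only 1 of those 57 was isolated. The set that was isolated, narrow in both replicates and at least 50% covered by both held 26 regions (10.0% of the 260).

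The contrast in isolation between narrow shared regions and other narrow regions differed by width class. Within the class of 2000 to 2499 bp, where most narrow shared regions lie, the median gap was 961 bp for the 167 shared and 920 bp for the 230 not shared, and 13.8% and 13.0% of them were isolated. At 1001 to 1499 bp the 18 shared regions had a median gap of 155 bp with 0 isolated, against 1542 bp and 21.3% for the 1178 not shared. At 1500 to 1999 bp the 75 shared regions had a median gap of 617 bp, against 1255 bp for the 666 not shared. Isolated were 10.7% and 16.1% of them. Below 2000 bp the shared regions thus lay nearer to a neighbour at the median than those not shared, and from 2000 to 2499 bp the medians were close.

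The most isolated of the 260 lay on 2L at 15504514 to 15506368, 1855 bp or 9.76 repeats wide, and its nearest other region was 228097 bp away. Its combined score was 0.33, and its replicate regions were 2028 bp and 1371 bp wide. Next came 3L at 3615130 to 3617258, with a gap of 98525 bp, a width of 2129 bp and 92.1% of its bases or more inside each replicate's region. The third was 2L at 1882436 to 1884432, with a gap of 60481 bp. The largest gaps on the other arms were 42547 bp on X at 12008272 to 12010300 and 36743 bp on 3R at 17647484 to 17649566. These 5 regions all met single replicate regions under 2500 bp and had combined scores between 0.33 and 0.47.

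The narrowest of the 260 on each arm lay close to a wider region. The narrowest of all, on 3R at 17206388 to 17207396, was 1009 bp or 5.31 repeats wide and lay 91 bp from a wider region. Its replicate 2 region was 4550 bp wide and covered 50.6% of it. On X the narrowest was 1159 bp wide at 2171504 to 2172662, with a wider region 137 bp away and a replicate 2 region of 4457 bp. On 3L it was 1163 bp wide at 1858482 to 1859644, with a wider region 7 bp away and a replicate 2 region of 6641 bp. On 2L it was 1461 bp wide at 3445178 to 3446638, with a wider region 139 bp away and a replicate 2 region of 4674 bp. In these 4 the replicate 2 region was longer than 4 kb. Of all 18 narrow shared regions under 1500 bp, 14 had a wider region as their nearest neighbour and 10 met a replicate 2 region of 2500 bp or more, so the 4 do not stand for every short one.

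A wider shared region was the commonest nearest neighbour, at a share not far above that of such regions in the list. The nearest region to a narrow shared one was a wider shared region in 145 of 260 cases (55.8%; 49.5% to 61.9%), while such regions were 49.5% of the list on these arms. It was one of the other narrow regions in 85 (32.7%; 38.4% of the list), another narrow shared region in 18 (6.92%; 4.82% of the list) and a wider region not in both replicates in 12 (4.62%; 7.28% of the list). The nearest region of 2500 bp or more was a median of 1908 bp away, against 4171 bp for the other narrow regions and 1705 bp for the wider shared ones. It was within 1 kb of 99 of the 260 (38.1%; 32.2% to 44.3%), against 22.0% and 36.9%. It was over 10 kb away for 41 (15.8%; 11.6% to 20.8%), against 29.1% and 12.1%. Over all 260, the narrow shared regions were thus about as near to wider regions as the wider shared regions were. This did not hold for the 184 narrow in both replicates, with a median of 2689 bp against 1705 bp. At the 153 of these that were also at least 50% covered by both, the median was 2883 bp. At the 57 where the replicate 2 region alone was wider, it was 441 bp. Within the 2000 to 2499 bp class the medians were 2469 bp for the shared and 2980 bp for those not shared.

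Set out by distance, the share of narrow regions found in both replicates was 17.8% (14.7% to 21.3%) of the 555 within 1 kb of a wider region and 12.1% (9.90% to 14.7%) of the 758 at 1 to 5 kb. It was 7.43% of the 377 at 5 to 10 kb and 6.37% (4.61% to 8.54%) of the 644 beyond 10 kb. Median widths in these 4 classes were 1565, 1529, 1457 and 1409 bp, so narrow regions near a wider one were also somewhat wider. With a minimum overlap of 1 bp, a replicate region that runs out of a wider neighbour can also make a narrow region shared. The 57 where the replicate 2 region alone was wider had a median gap to a wider region of 441 bp. The parts of width and of this rule in the order were not tested. Broad regions of 10 kb or more were farther off, with a median of 41967 bp from the narrow shared regions, 44681 bp from the other narrow regions and 32107 bp from the wider shared regions. A broad region lay within 5 kb of 34 of the 260 (13.1%; 9.23% to 17.8%).

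**Figure D3:**
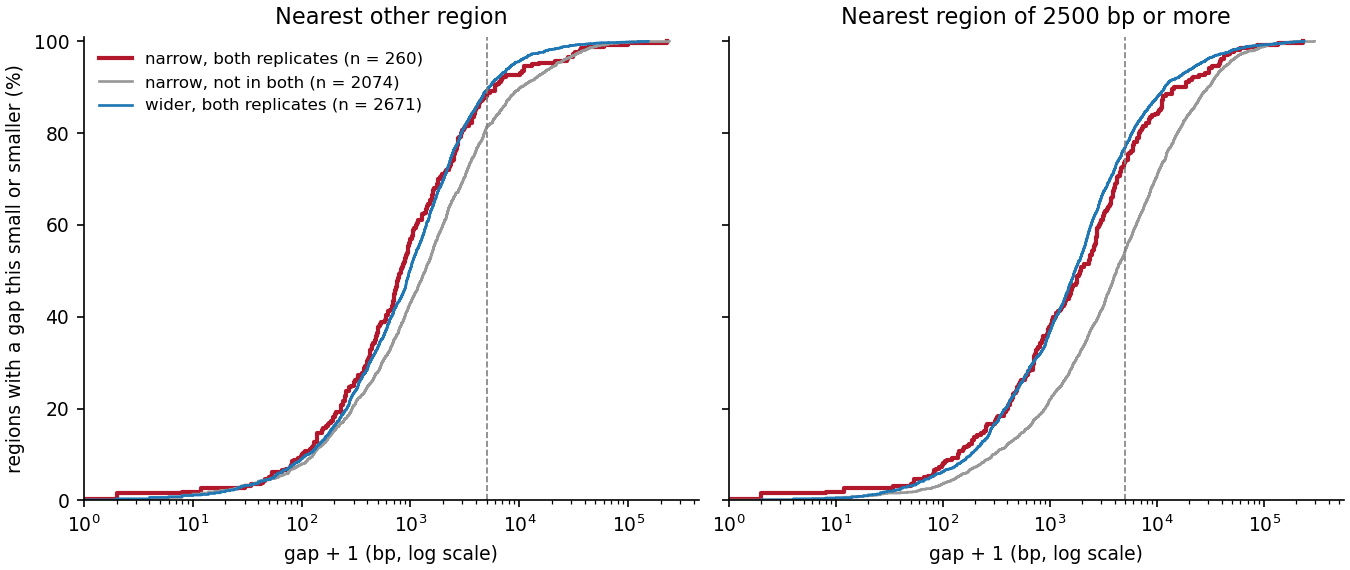
Cumulative percent of narrow shared regions (red), other narrow regions (grey) and wider shared regions (blue) by the gap to the nearest other region (left) and to the nearest region of 2500 bp or more (right), in bp plus 1 on a log scale, with a dashed line at 5 kb. The red and blue curves run close together, with medians of 811 and 985 bp on the left and 1908 and 1705 bp on the right, and the grey curve lies to their right, with medians of 1364 and 4171 bp.

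When regions less than or equal to 5 kb apart were linked into chains, the 5398 regions formed 1863 chains, 750 of which were single regions. Of the 260 narrow shared regions, 31 stood alone, 36 were in chains of 2, 88 in chains of 3 to 5 and 105 (40.4%) in chains of 6 or more. The shares in chains of 6 or more were 36.2% of the other narrow regions and 40.0% of the wider shared ones. The chain around a narrow shared region had a median of 4 regions, as it did for both other classes. Its median span was 21.8 kb, against 17.7 kb for the other narrow regions and 28.8 kb for the wider shared ones. Among the 229 in a chain of 2 or more, 99 (43.2%) were its first or last region, against 51.5% of the other narrow regions and 46.7% of the wider shared ones. In the share in chains of 6 or more and in place the narrow shared regions were thus nearer to the wider shared regions. In median span they lay between the other classes.

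At 2 to 5 kb from the centre, 42.8% of positions lay in a combined region around narrow shared regions, against 34.2% around other narrow regions and 58.3% around wider shared regions, where the region itself can reach that far. In the replicate 2 list the flanks of the 3 classes were at 28.8%, 15.1% and 46.9%, and in the replicate 1 list at 37.5%, 34.7% and 53.7%. Farther out, replicate 2 stood at 32.4%, 20.8% and 39.0% at 5 to 10 kb and at 29.1%, 23.9% and 34.7% at 10 to 20 kb. Overlap with replicate 2 is part of what separates the narrow classes, so the difference in replicate 2 near the centre follows in part from the choice. Between 10 and 20 kb out the combined list stood at 38.3% around narrow shared regions, 36.1% around other narrow regions and 45.2% around wider shared regions.

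**Figure D4:**
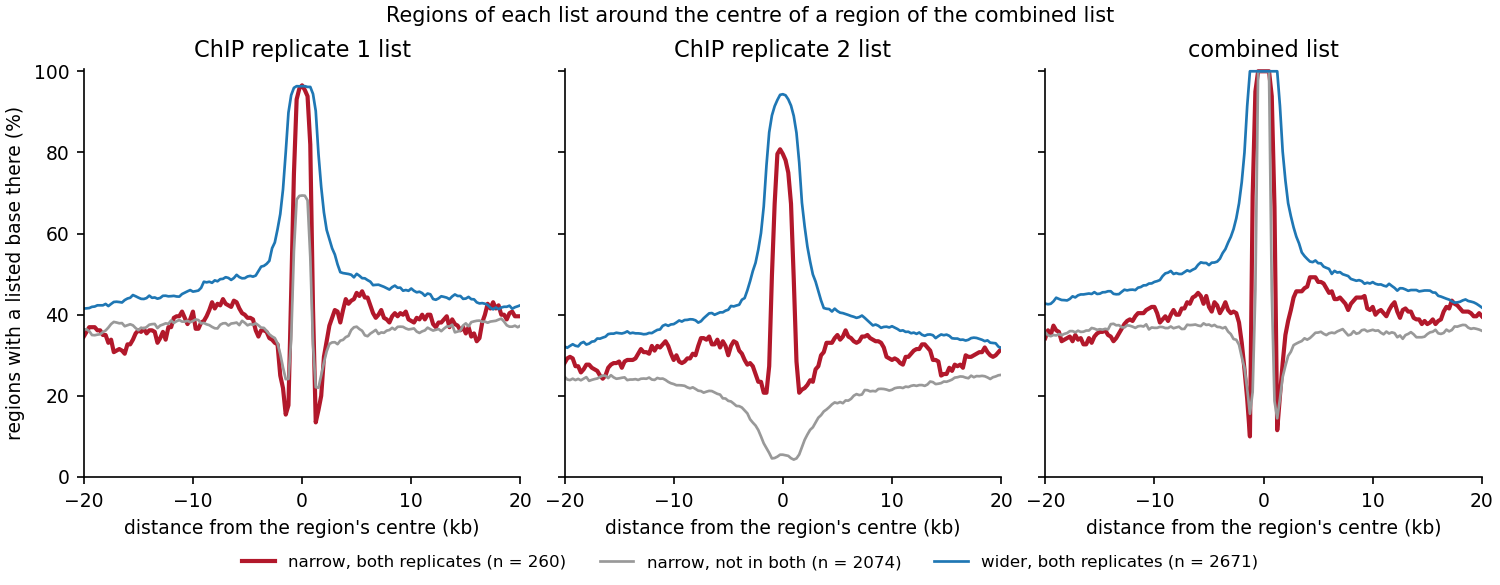
Percent of narrow shared regions (red), other narrow regions (grey) and wider shared regions (blue) with a base of the replicate 1, replicate 2 or combined list at each distance, in steps of 250 bp out to 20 kb, from the centre of the combined region. All classes start at 100% in the combined list by construction, and in the replicate 2 list the flanks at 2 to 5 kb are at 28.8% for narrow shared regions and 15.1% for other narrow regions.

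Scores of the narrow shared regions were low within their list. The score is the submitters' own value for each region, and its definition is not given in the sources used here. Within a list, many scores were repeated exactly, and the difference between a repeated score and the list's commonest score was the log2 of a ratio of whole numbers up to 200 for 96.2% of the repeated scores of replicate 1, 71.9% of those of replicate 2 and 51.0% of those of the combined list (relative tolerance 1e-09). On a natural log scale the same shares were 1.52%, 2.43% and 2.30%. Over all scores of a list, repeated or not, the log2 shares were 56.7%, 23.2% and 12.5%. A log2 scale fits these lists better than the other bases tried, least firmly for the combined list, and the zero point and what is counted are unknown. The median combined score was 0.40 for the narrow shared regions (interquartile range 0.34 to 0.49, lowest 0.17, highest 2.05), against 0.38 for the other narrow regions and 0.93 for the wider shared ones. The median of the narrow shared regions was 0.53 below that of the wider shared regions, which would be a ratio of 0.694 if the score is a log2 value.

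The median narrow shared region stood at the 29.0th percentile of scores on the 4 arms and at the 59.7th percentile among narrow regions. Below the median of all regions were 223 of the 260 (85.8%; 80.9% to 89.8%), and only 1 was in the top 10%. Within each replicate list the regions at these places were lower still, with a median at the 18.0th percentile in replicate 1 (score 0.52) and the 17.1th in replicate 2 (score 0.56). Wider narrow shared regions scored higher: Spearman's rho between width and combined score was 0.69 and Pearson's r 0.38 over the 260, which come from one list and share its libraries. By width class only the widest stood higher, with median scores of 0.34, 0.33 and 0.45 for shared regions of 1001 to 1499, 1500 to 1999 and 2000 to 2499 bp. Regions of these widths that were not shared had median scores of 0.38, 0.36 and 0.45. Under 2500 bp the median score of shared regions was thus close to or below that of regions of like width that were not shared. Above the limit it was higher, at 0.65 against 0.43 from 2500 to 2999 bp and 0.84 against 0.44 from 3000 to 3999 bp.

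Replicates ranked the narrow shared regions differently. Spearman's rho between replicate 1 and replicate 2 scores was 0.09 over the 260 and 0.30 over the 184 that were narrow in both, against 0.58 over 1874 wider shared regions with 1 region in each replicate. Pearson's r over the 260 was 0.47, and without the single highest-scoring region it was 0.07 over the other 259 (rho 0.08). Widths behaved alike, with a rho of 0.01 between replicates over the 260, 0.31 over the 184 and 0.62 over the 1874. These regions cover a short range of widths and scores, which limits any rank correlation. The combined score followed replicate 1 (rho 0.63) more than replicate 2 (rho 0.26), and combined width likewise (0.59 and 0.08).

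The very high region lay on X at 6066586 to 6068538, 1953 bp or 10.3 repeats wide. Its combined score of 2.05 was at the 99.0th percentile, with 53 regions of the 4 arms above it. Its replicate 1 region, of 1522 bp, scored 4.23, and 1 region on the 4 arms was higher. Its replicate 2 region, of 1616 bp, scored 3.58, and no region on the 4 arms was higher, though another had the same score. Both replicate scores occurred 2 times in their own lists. Relative to each list's commonest score these values were the log2 of 14:1 in replicate 1, of 8:1 in replicate 2 and of 25:56 for the combined region. The region stood 2555 bp from its nearest neighbour and 39809 bp from the nearest wider region, and the stretch in all 3 lists was 1128 bp.

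The next highest scores were those of X at 9518072 to 9519394, with 1.02, and 3R at 9485558 to 9487866, with 0.95. On X the replicates met the region at different places: the replicate 1 region covered 2.57% of it and the replicate 2 region 98.1%, and 9 bp were in all 3 lists. On 3R the replicate regions covered 100.0% and 92.6% and had widths of 2368 and 2137 bp. The top region of 2L, at 1004978 to 1007306, scored 0.88 with replicate coverage of 85.1% and 94.5%, and that of 3L, at 15090140 to 15092578, scored 0.82 with coverage of 92.7% and 95.8%. A high combined score thus did not always mark a place where the replicates overlapped fully.

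All 4 arms held narrow shared regions at similar densities. There were 52 on X, 60 on 2L, 65 on 3L and 83 on 3R, or 2.32, 2.61, 2.65 and 2.97 per Mb. They made up 9.17% of the narrow regions on X (6.93% to 11.9%), 12.3% on 2L (9.50% to 15.5%), 11.2% on 3L (8.74% to 14.0%) and 11.9% on 3R (9.60% to 14.5%), and these intervals overlap. Density on X was 0.841 of that on the 3 autosomal arms together. The order did not hold for all ways of counting: narrow replicate 1 regions found in replicate 2 were 1.09 times as dense on X as on the autosomal arms, and narrow replicate 2 regions found in replicate 1 were 1.08 times as dense.

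Regions on X differed somewhat in value. Their median combined score was 0.47 (interquartile range 0.38 to 0.53), against 0.40 on the autosomal arms (0.33 to 0.48), and the ranges overlap widely. Median scores of the replicate regions were 0.55 on X and 0.49 on the autosomal arms in replicate 1, and 0.61 and 0.54 in replicate 2. The median gap to the nearest region was 1406 bp on X, against 858 bp on 2L, 709 bp on 3L and 737 bp on 3R, while the median gap to a wider region was 1845 bp on X and 1929 bp on the autosomal arms. Isolated regions were 5 of 52 on X, 10 of 60 on 2L, 10 of 65 on 3L and 6 of 83 on 3R. The replicate 2 region was over 2500 bp wide at 13.5% on X, 20.0% on 2L, 26.2% on 3L and 27.7% on 3R. Median widths differed little, at 2093, 2099, 2153 and 2113 bp on X, 2L, 3L and 3R. No such values are given here for all regions of each arm, so these differences are not shown to be particular to narrow shared regions.

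Along the arms the narrow shared regions were thinly spread. Of 96 windows of 1 Mb, 8 held none, the median window held 3 and the fullest held 7. The longest distance between the centres of 2 successive ones was 1947 kb, on 3L from 4154636 to 6101262. Stretches between the last one and the end of an arm were not counted. In the 1 Mb of assembled sequence next to the centromere there were 2 on X, 0 on 2L, 1 on 3L and 4 on 3R, where the combined list held 67, 89, 116 and 100 regions.

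Starting from a single replicate, narrow regions were found again far more often in one direction than in the other. Of 3306 narrow replicate 1 regions on the 4 arms, 799 (24.2%; 22.7% to 25.7%) overlapped a replicate 2 region, against 81.5% of wider replicate 1 regions. Of 909 narrow replicate 2 regions, 772 (84.9%; 82.4% to 87.2%) overlapped a replicate 1 region, against 99.1% of wider ones. Replicate 1 listed more regions and bases than replicate 2, and the part of this difference in the 2 shares was not tested. Higher-scoring narrow replicate 1 regions were found less often, with 30.3%, 31.4%, 22.8% and 12.2% (10.1% to 14.6%) across 4 equal classes from the lowest scores to the highest. The same classes of replicate 2 gave 85.5%, 85.0%, 81.5% and 87.7%. Isolated narrow replicate 1 regions were found in 7.61% of cases (5.85% to 9.71%), against 29.2% of those with a neighbour within 5 kb, whereas in replicate 2 the shares were 88.3% and 83.8%. The counts were 59 of 775 isolated narrow regions in replicate 1 and 196 of 222 in replicate 2.

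**Figure D5:**
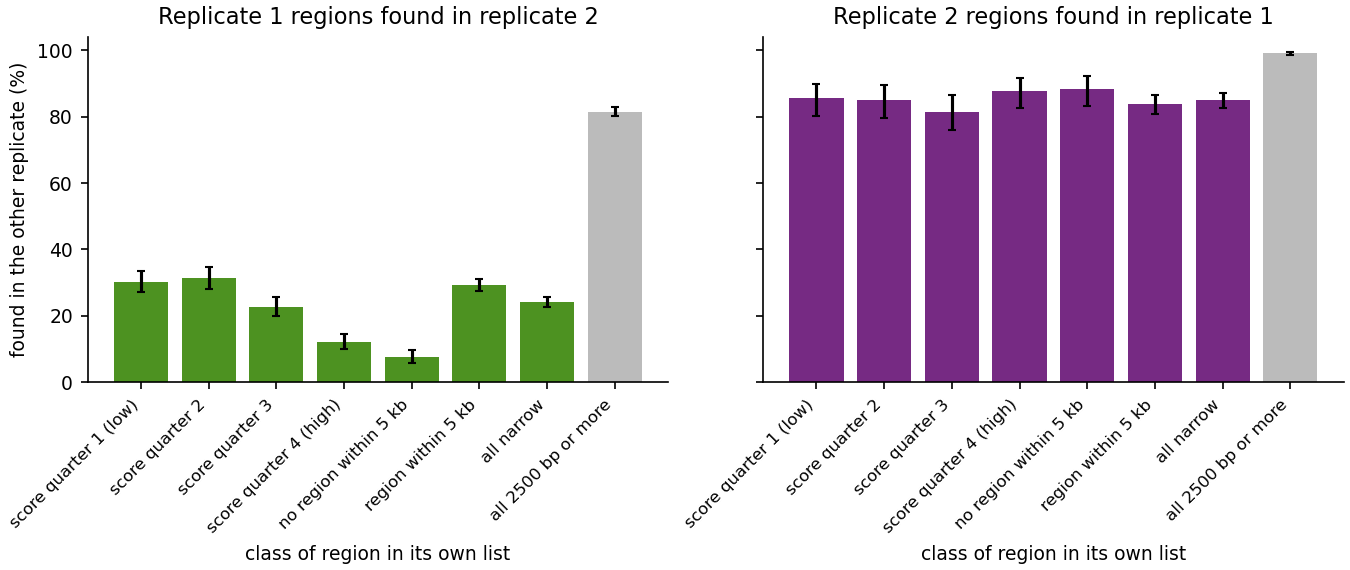
Percent of narrow regions of replicate 1 found in replicate 2 (left, green) and of replicate 2 found in replicate 1 (right, purple), by 4 equal classes of score within their own list and by isolation, with wider regions in grey and exact 95% Clopper-Pearson intervals as bars. Replicate 1 shares run from 7.61% for isolated regions to 31.4% in the second score class, and replicate 2 shares from 81.5% to 88.3%.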

How the data were processed

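The 3 lists of enriched regions were used as the authors deposited them. Alignment was by Bowtie 0.12.7, as the submitters' processing notes name it, and coordinates follow FlyBase release 5, per the file headers. Not given in the sources used here are the program that found the regions, its threshold and filters, and how the combined list was made. The score column is the authors' own value per region, deposited without a definition. Score levels were compared within one list, except in the correlations between lists and in the standard deviation between replicates. The labels pair each ChIP list with the input of its own number, and no list of the inputs was used here.

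The members and the comparisons were chosen with earlier results of these data known. Width is end minus start plus 1. A gap counts the bases between region edges on one arm, isolated means no other region within 5 kb, and arm lengths are those of the file headers. The combined list has positions on a grid of 2 bp. Where a region met several regions of a replicate list, the largest width and the largest score among them were taken. Intervals are exact Clopper-Pearson 95% intervals. Regions named are the 3 highest-scoring, the 2 with the largest gap and the narrowest on each arm, and the 3 nearest the limit on each side; of these, only those that add to the text are printed. The interval arithmetic was tested on simulated lists. Python 3.11.15, numpy 2.4.6, pandas 2.3.3, scipy 1.17.1 and matplotlib 3.10.9 were used. Alternatives were other width limits, overlap minimums, repeats and windows, each replicate left out, higher-scoring regions only and joined regions.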

Additional observations from a re-analysis of the deposited data

How the results depend on the processing

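Since no test was run, an alternative counted as a change when a value moved by more than the standard deviation between replicates or left its interval, or when a count changed by more than 1.5 times; of 73 alternatives, 46 changed a value and 27 did not. With a width limit of 2000 bp there were 93 regions, with a median width of 1751 bp, a median gap of 481 bp, a median score of 0.33, a ratio of density on X to the autosomal arms of 0.982 and 49.5% narrow in both replicates. With a limit of 3000 bp there were 504, with a median width of 2488 bp, a median score of 0.51 and a ratio of 0.929. Asking for 50% cover by each replicate gave a median width of 2209 bp, a median gap to a wider region of 2522 bp, a ratio of 0.799 and 77.3% narrow in both. Leaving out replicate 1 or replicate 2 gave 395 or 1715 regions, median widths of 1973 or 1603 bp, median gaps of 811 or 1393 bp, isolated shares of 9.87% or 19.9%, gaps to a wider region of 1757 or 4403 bp, median scores of 0.37 or 0.39, ratios of 0.828 or 1.04, and 73.7% or 78.5% narrow in the replicate kept. Keeping the higher-scoring 50% of each list left 3 regions, with a median width of 1899 bp, a median gap of 2555 bp, 33.3% isolated, a gap to a wider region of 5485 bp, a median score of 0.80 and a ratio of 6.73. Joining regions less than 500 bp apart gave 164 regions, a median gap to the nearest region of 1762 bp, 18.9% isolated, a gap to a wider region of 2825 bp and a ratio of 1.01. Isolated shares were 28.8% with a window of 2 kb and 7.31% with 10 kb. With wider meaning 5000 or 10000 bp, the gap was 7893 or 41967 bp. Keeping only the 184 narrow in both, an alternative chosen after seeing the data, gave a gap to a wider region of 2689 bp and a ratio of 0.935. A repeat of 180 bp gave a median of 11.8 repeats and one of 200 bp 10.6. The share of narrow replicate 1 regions found in replicate 2 was 17.4% with 50% cover, 17.9% with a limit of 2000 bp and 30.4% with 3000 bp, and starting from replicate 2 it was 84.9%.

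Each replicate standard deviation came from 2 values, 1 from each replicate list, while the results come from the combined list. For the score, the 2 replicate lists have scales of their own. For the ratio of X, the values were those of narrow replicate regions found in the other replicate (1.09 and 1.08), and their standard deviation was only 0.0128. The counts of changes are thus a rough guide. The replicate standard deviation of the median gap is larger than the 811 bp it is set against, so gaps from 481 to 1762 bp counted as no change. The ratio of X to the autosomal arms lay on either side of 1 and has no stable direction here. What caused these changes was not tested. With read depth and the threshold behind each list unknown, a region missing from a list is not shown to lack H2Av, and the floors on width limit what narrow can mean. No paired analysis was possible because these are counts and medians over region lists.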

Other observations

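The highest scores among narrow regions were concentrated in those found in neither replicate. In the top 10% of scores of the 4 arms were 1 of the 260 narrow shared regions (0.385%; 0.00974% to 2.12%), 13 of the 1455 narrow regions found in replicate 1 alone (0.893%), 1 of the 135 found in replicate 2 alone (0.741%) and 61 of the 484 found in neither replicate (12.6%; 9.78% to 15.9%). Over all narrow regions the share found in both replicates was 8.73%, 8.23%, 11.7% and 15.9% across 4 equal classes from the lowest scores to the highest, against 11.1% overall. Scores that occurred more than once in the list were 10.4% of the narrow shared regions, 21.6% of those in replicate 1 alone, 19.3% of those in replicate 2 alone, 34.5% of those in neither and 1.09% of the wider shared regions. The commonest score of the whole combined list, on all sequences, was itself high, at 3.22, and occurred 32 times. With the score undefined, a high value is not shown to mean strong enrichment. The 484 in neither replicate had a median width of 1193 bp, and the highest score among them was 3.54, against 2.05 among the narrow shared regions. Why the combined list holds regions that neither replicate list holds was not tested.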
